A study of Mus musculus with 167 samples.

Results

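The microRNA (miRNA) genes Mir216a, Mir216b and Mir217 form a cluster on mouse chromosome 11, and 3 of the 1915 mature miRNAs counted in these libraries were its members here. They were the rows named mmu-miR-216a-5p, mmu-miR-216b-5p and mmu-miR-217-5p in the count tables of 5 tissues, called miR-216a-5p, miR-216b-5p and miR-217-5p below. The cluster was proposed with earlier results in view, in which miR-216a-5p differed between irradiated and sham lung and heart. That contrast was taken as the one that chose it, and its values are given as a description, without a test. Small RNA was sequenced from lung, heart, brain and 2 blood fractions, leukocytes (WBC) and erythrocytes (RBC), of 35 mice in 167 libraries. C3H mice (all female) were given whole thorax lung irradiation (WTLI) or a sham exposure and were sampled at month 4, and C57 mice were treated likewise and sampled at month 6, so strain and time cannot be told apart. WTLI is an exposure of the chest to X-rays with the rest of the body shielded, and the irradiated mice sampled were alive at these late times. Lung, heart, brain and RBC each had 7 irradiated and 8 sham C3H libraries, with 5 irradiated (4 male, 1 female) and 15 sham (8 male, 7 female) C57 libraries. WBC had 6 irradiated and 5 sham C3H libraries, and 5 irradiated and 11 sham C57 libraries. Each title also has an A or a B of unstated meaning, here called its letter, and the main values of miR-216a-5p are also given by letter. Tissues were whole homogenates, in which fewer cells of a type and less RNA per cell cannot be told apart.

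MiRNAs are short RNAs cut from a hairpin precursor, whose 5′ and 3′ arms can each become a mature strand. They repress messenger RNAs that pair with the seed, bases 2 to 8 from the 5′ end. MiR-216a, miR-216b and miR-217 are best known as miRNAs of the acinar pancreas, the gland that makes digestive enzymes. MiR-216a and miR-217 are also induced by TGF-beta in mesangial cells of the kidney. MiR-217 represses the deacetylase Sirt1 in aging endothelial cells.

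In the RefSeq annotation of GRCm38.p6 the hairpins lie on the plus strand of chromosome 11, Mir216b at 28746191 to 28746276, Mir216a at 28757012 to 28757083 and Mir217 at 28763728 to 28763835. The cluster spans 17645 bases, with 10735 bases between Mir216b and Mir216a and 6644 bases between Mir216a and Mir217. Mir216a and Mir217 lie in the intron between exons 2 and 3 of the noncoding gene Gm12082 (28751633 to 28815767, plus strand), and Mir216b ends 5357 bases before that gene starts. A further hairpin, Mir216c (28746198 to 28746266), lies on the minus strand opposite Mir216b. The mature sequences of the members are shown because their seeds decide which of them could pair with the same targets, with the seed in capitals:
miR-216a-5p: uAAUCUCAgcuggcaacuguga
miR-216b-5p: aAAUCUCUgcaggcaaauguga
miR-217-5p: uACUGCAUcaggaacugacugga

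MiR-216a-5p and miR-216b-5p were identical at 18 of 22 positions. Counted from 1 at the 5′ end of miR-216a-5p, the 4 differences were U1A, A8U, U11A and C17A. The seeds thus differed at their last base and shared bases 2 to 7, which no further miRNA shared among the 1623 listed miRNAs with a sequence in RefSeq. None of the 1623 shared bases 2 to 7 with miR-217-5p. The opposite arms, whose counts are given below beside those of the members, have other seeds:
miR-216a-3p: cACAGUGGucucugggauuaug
miR-216b-3p: aCACUUACcuguagagauucuu
miR-217-3p: cAUCAGUUccuaaugcauugccu

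Library totals ranged from 1794995 to 7865102 counts, and at the median total of 3475620 counts 1 read was worth 0.288 reads per 1000000 library counts (RPM). MiR-124-3p, a neuronal miRNA, was higher in each of 35 brain libraries than in any library of another tissue, and miR-208a-3p, a cardiac muscle miRNA, was so in each of 35 heart libraries. One heart library, C3H irradiated replicate 3, stood apart, with 50690 RPM summed over the 4 cardiac muscle miRNAs against 152407 to 298863 RPM in the other 34 heart libraries.

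The cluster was seen mainly through miR-216a-5p, and most of all in brain. MiR-216a-5p had 9003 counts over the 35 brain libraries, 879 over heart, 459 over lung, 120 over RBC and 6 over WBC. It was present in every brain library (87 to 430 counts) and in 33 of 35 libraries of both lung and heart. In brain it ranked 187 of 1138 detected miRNAs by mean RPM, in heart 234 of 978 and in lung 303 of 1058. MiR-217-5p had 81 counts in brain, 29 in heart and 25 in lung, with at most 7 counts in a library. MiR-216b-5p had 32 counts in brain, 12 in heart and 3 in lung, with at most 6 in a library. Neither miR-217-5p nor miR-216b-5p had a count in WBC, which with 114344380 counts in all allows up to 0.0262 RPM (3 counts). Thus 1 arm of 1 hairpin gave nearly all reads of the cluster in each of the solid tissues.

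The arms of the hairpins differed in which strand was more abundant. In brain, miR-216a-5p had 9003 counts and miR-216a-3p 120. MiR-217-5p had 81 and miR-217-3p 17 in brain, while miR-216b-5p had 32 and miR-216b-3p 51. In heart miR-216b-5p and miR-216b-3p had 12 and 11 counts. Both arms of miR-216c were at 0 in all 167 libraries, which allows up to 0.0052 RPM (3 counts of 577161162).

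**Figure D1:**
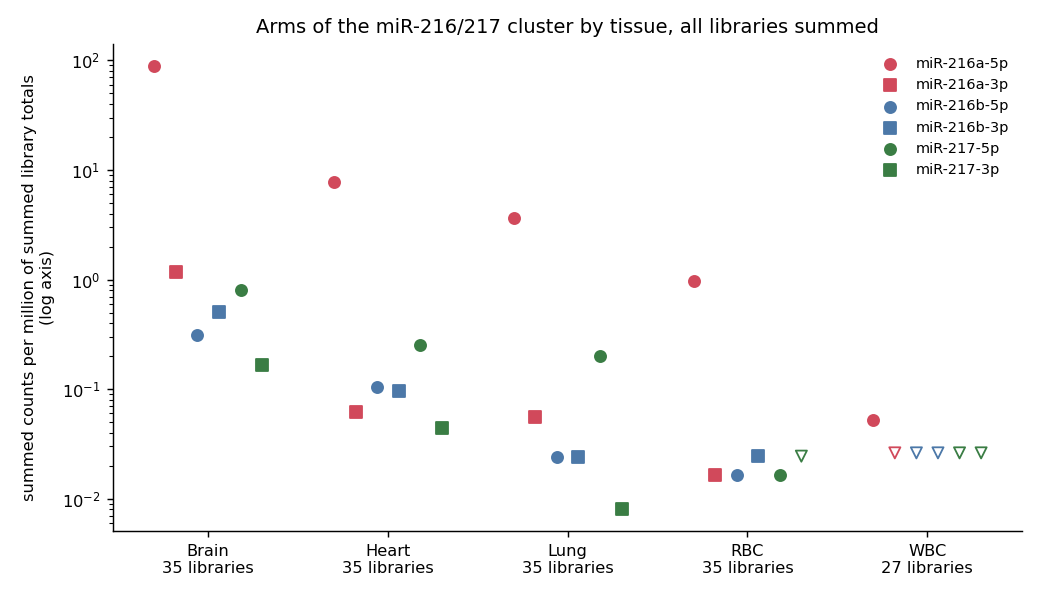
Counts of each arm of the cluster summed over all libraries of a tissue, in RPM of the summed library totals (log axis), where open triangles mark the limit of 3 counts for an arm with no count. MiR-216a-5p lay above every other arm in all 5 tissues, from 88.6 RPM in brain to 0.0525 RPM in WBC.

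Among the solid tissues of sham mice, the mean level of miR-216a-5p was highest in brain. By mean RPM heart was above lung in C3H and below it in C57. In the main quantile-normalised fit the log2 difference, heart minus lung, was 1.37 (SE 0.38) in C3H. In C57 it was 0.18 (SE 0.35), too small against its error to place either tissue above the other. Sham brain had 81.8 ± 34.5 RPM (SD, n = 8) in C3H and 95.3 ± 35.8 RPM (SD, n = 15) in C57. Sham heart had 4.55 ± 1.41 RPM (SD, n = 8) in C3H and 0.583 ± 0.398 RPM (SD, n = 15) in C57. Sham lung had 2.40 ± 1.21 RPM (SD, n = 8) in C3H and 1.45 ± 1.10 RPM (SD, n = 15) in C57. The lowest sham brain library, at 35.2 RPM, was above the highest sham library of lung (4.54 RPM) and of heart (6.56 RPM).

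In C3H heart every irradiated library held more miR-216a-5p than every sham library. The sham libraries had a lowest value of 2.52, a median of 4.65 and a highest of 6.56 RPM (7 to 22 counts). The irradiated libraries had a lowest value of 8.14, a median of 29.1 and a highest of 39.3 RPM (35 to 139 counts). The means were 4.55 ± 1.41 RPM (SD, n = 8) and 27.0 ± 10.8 RPM (SD, n = 7), and the normalised log2 difference was 2.73 (SE 0.28). The 2 groups did not overlap, in 7 of 7 irradiated libraries. Such a separation upward was seen in 2.03% of the 590 heart miRNAs with at least 10 counts, and 6.73% of the 312 miRNAs tested in C3H heart were called changed (limma adjusted p under 0.05 and a log2 difference of at least 1.17 in size). The members were selected on this contrast, so nothing is read from either share.

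The lowest irradiated heart library was replicate 3, the library with low cardiac muscle miRNAs, and the next lowest held 20.4 RPM. Without replicate 3 the log2 difference was 2.89. The 3 irradiated letter A libraries held 8.14 to 23.8 RPM and the 4 letter B libraries 29.1 to 39.3 RPM, while the sham libraries of the letters held 3.27 to 6.56 and 2.52 to 6.35 RPM. Within letters A and B the log2 difference was 2.54 (SE 0.37) and 2.72 (SE 0.28).

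In C57 heart miR-216a-5p was near its detection limit and the groups overlapped. The sham libraries ranged from 0 through a median of 0.574 to 1.54 RPM (0 to 4 counts). The 5 irradiated libraries held 5, 2, 5, 1 and 4 counts, or 1.55, 0.663, 1.65, 0.306 and 1.95 RPM. Of these, 3 lay above all sham libraries and 4 above the sham median. The means were 0.583 ± 0.398 RPM (SD, n = 15) and 1.22 ± 0.701 RPM (SD, n = 5), and the log2 difference was 0.42 (SE 0.48). Within letters A and B it was 0.90 (SE 0.62) and 0.09 (SE 0.54). In this comparison 0.962% of the miRNAs tested were called changed.

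In lung, miR-216a-5p was higher in the irradiated libraries of both strains. The C3H sham libraries had a lowest value of 0.812, a median of 2.30 and a highest of 4.35 RPM (3 to 16 counts), and the irradiated libraries 5.14, 10.6 and 12.8 RPM (14 to 49 counts). All 7 irradiated libraries lay above all sham libraries, as for 6.95% of the 662 lung miRNAs with at least 10 counts. The C3H means were 2.40 ± 1.21 RPM (SD, n = 8) and 9.55 ± 2.57 RPM (SD, n = 7), with a log2 difference of 1.55 (SE 0.31). Within letters A and B this was 1.35 (SE 0.39) and 1.67 (SE 0.45). In C3H lung 9.71% of the 350 miRNAs tested were called changed, and nothing is read from this share for the member that chose the contrast.

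The C57 lung groups overlapped more. The sham libraries ranged from 0 through a median of 1.48 to 4.54 RPM (0 to 15 counts). The irradiated libraries held 5.62, 4.23, 2.52, 3.34 and 2.18 RPM (25, 19, 9, 13 and 10 counts). All 5 lay above the sham median and 1 above the highest sham library. The C57 means were 1.45 ± 1.10 RPM (SD, n = 15) and 3.58 ± 1.39 RPM (SD, n = 5), and the log2 difference was 1.20 (SE 0.36). Within letters A and B it was 1.42 (SE 0.41) and 1.27 (SE 0.55). With C57 males alone it was 0.82 (SE 0.31), and without irradiated replicate 1 it was 0.99 (SE 0.39). In this comparison 6% of the miRNAs tested were called changed.

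**Figure D2:**
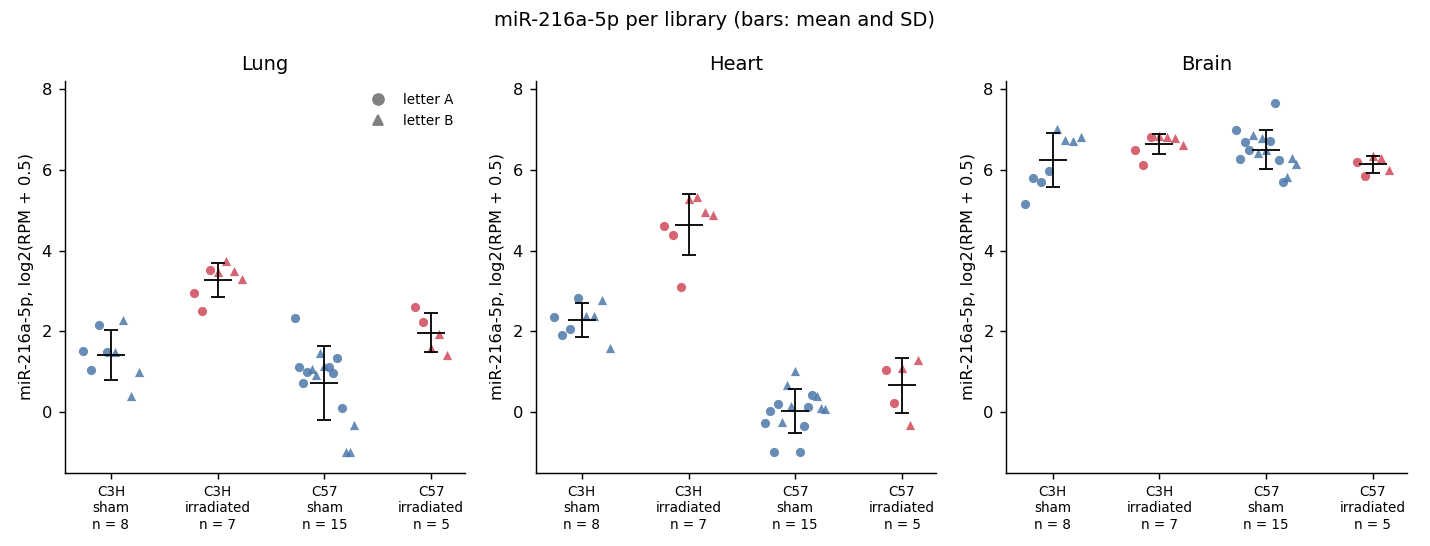
MiR-216a-5p in each lung, heart and brain library as log2(RPM + 0.5), by strain and treatment, with the letter of the sample title as the symbol and bars for the mean and SD. Irradiated C3H lung (5.14 to 12.8 RPM) and heart (8.14 to 39.3 RPM) libraries lie above all C3H sham libraries of the tissue, and brain libraries (35.2 to 199.7 RPM) overlap between treatments.

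MiR-217-5p, the distal member of the cluster, had too few counts for the fit in lung and heart, and its raw counts are given. In C3H lung the 7 irradiated libraries held 6, 0, 3, 4, 3, 2 and 1 counts, and the 8 sham libraries held 0. Set against a limit of 3 counts over the sham group, the 19 counts came to a 7.34-fold higher level, with no error taken on the 19. In C3H heart the irradiated libraries held 0, 3, 6, 2, 2, 6 and 4 counts, and the sham libraries held 3 counts in all, 1 in each of 3 libraries. The summed counts came to 0.858 and 0.118 RPM, a ratio of 7.29, and within letters A and B it was 11.2 and 5.25. The cluster was selected on this contrast, so nothing is read from how many irradiated libraries exceeded the sham ones.

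In C57 mice miR-217-5p had 3 counts in 5 irradiated lung libraries and 3 in 15 sham lung libraries, a ratio of 2.36 with an exact interval of 0.317 to 17.6. In C57 heart it had 3 counts in 2 of 5 irradiated libraries and 0 in 15 sham libraries. These counts are too few to place the C57 groups in an order.

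MiR-216b-5p, which shares all but the last seed base with miR-216a-5p, was the rarest member. In C3H heart the 7 irradiated libraries held 1, 0, 0, 0, 1, 4 and 3 counts, and the 8 sham libraries held 2 counts in 2 libraries. The ratio of the summed RPM was 4.28 (95% exact interval 0.886 to 40.7). Of the 9 irradiated counts, 7 came from 2 libraries, replicates 6 and 7. Without replicate 6 the ratio was 2.81, and within letters A and B it was 1.25 and 6.00. In C3H lung miR-216b-5p had 2 counts in irradiated and 0 in sham libraries. In C57 mice it had 1 count in sham lung, 1 in sham heart and 0 in the irradiated libraries of both tissues.

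The 3 opposite arms had most of their counts in brain. Within lung and heart miR-216a-3p and miR-216b-3p were counted mostly in irradiated C3H libraries, in the same contrast that chose the cluster. MiR-216a-3p had 7 counts in 5 of 7 irradiated C3H lung libraries and 0 in sham. The 7 counts came to 2.71-fold more against a limit of 3 counts over the sham group, with no error taken on the 7. In C3H heart it had 4 counts in irradiated and 0 in sham libraries. MiR-216b-3p had 10 counts in 6 of 7 irradiated C3H heart libraries and 1 in sham, a ratio of 9.51 that rests on 1 sham count. In C3H lung miR-216b-3p had 3 counts in irradiated and 0 in sham libraries. MiR-217-3p had 3 counts in irradiated and 2 in sham C3H heart, and 0 in C3H lung. In C57 mice miR-216a-3p was counted in both sham and irradiated heart, and miR-217-3p had 1 count, in sham lung.

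**Figure D3:**
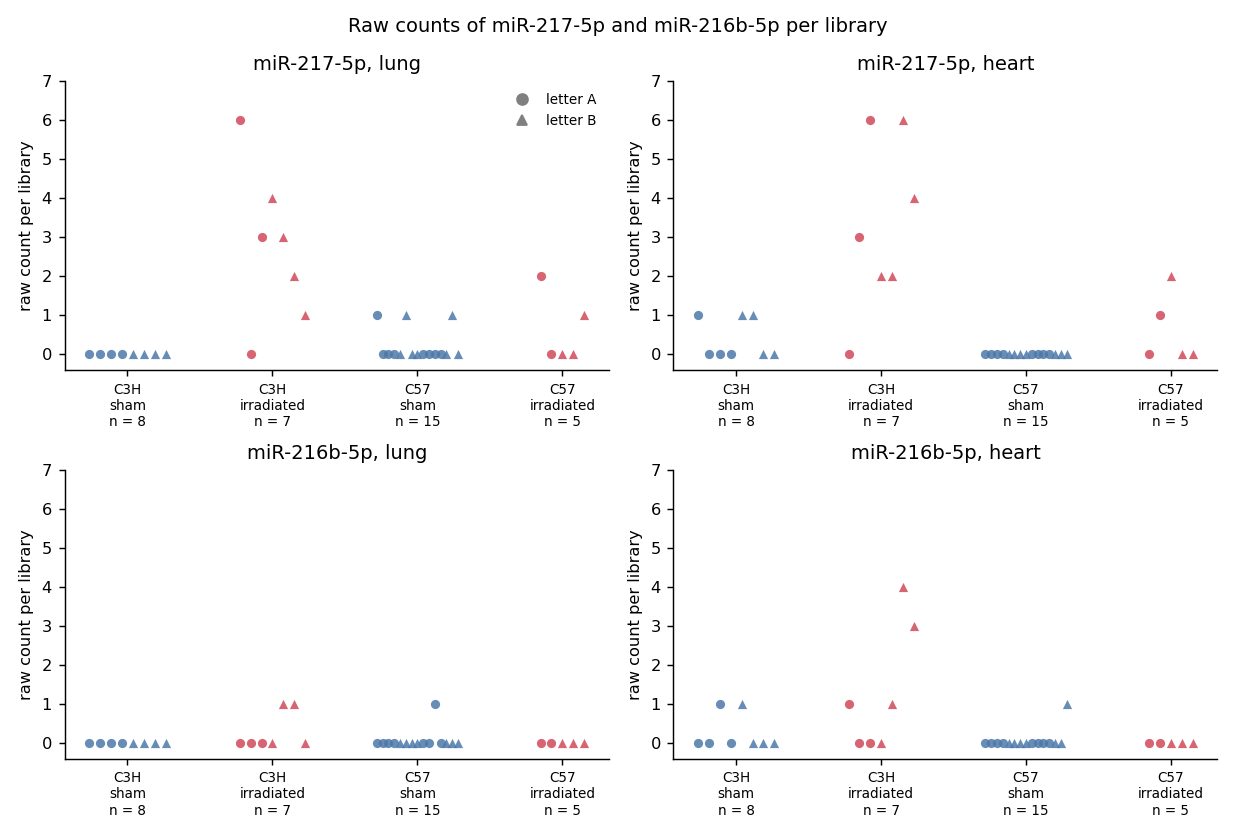
Raw counts of miR-217-5p and miR-216b-5p in each lung and heart library, by strain and treatment, with the letter of the title as the symbol. MiR-217-5p reaches 6 counts in irradiated C3H libraries of both tissues, while sham libraries hold at most 1 count of either miRNA.

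Marker miRNAs of other cell types were set beside these values, since whole tissues were sequenced. Of 8 miRNAs listed as enriched in pancreas outside this locus, 5 passed the filter in lung and 4 in heart. In lung 1 of these 5 rose in both strains, miR-7b-5p, an endocrine and neuronal miRNA, by 4.55 in C3H and 4.78 in C57 on the log2 scale (limma adjusted p = 2.93e-15 and 1.26e-18). MiR-375-3p, the main islet miRNA, was not called in lung, with log2 differences of -0.33 and -0.62. The list's median log2 difference was 0.64 in C3H lung and 0.53 in C57 lung, against -0.08 and -0.05 over all miRNAs tested. In heart 0 of 4 were called in either strain, with a median of 0.16 in C3H and 0.24 in C57 against -0.03 in C3H and about 0 in C57 over all. The list's summed level was 3680 to 6008 RPM in sham and 6702 to 8721 RPM in irradiated C3H lung, and miR-148a-3p made up most of it, at 4272 ± 718 (SD, n = 8) and 6935 ± 814 RPM (SD, n = 7), with an uncalled log2 difference of 0.64. MiR-375-3p was at 205.5 ± 38.7 (SD, n = 8) and 196.9 ± 38.5 RPM (SD, n = 7), and miR-375-5p was at 0 in all lung libraries.

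In C3H heart markers of ciliated epithelium were called higher beside miR-216a-5p. These are both arms of miR-34b and miR-34c, which are also direct targets of the DNA damage factor p53, and miR-449a-5p. Of 4 tested, 4 rose in C3H heart, among them miR-34c-5p by 2.43 and miR-34b-3p by 2.21 (limma adjusted p = 5.55e-08 and 3.14e-09). In C57 heart 1 of 4 rose, miR-34c-5p by 1.25 (limma adjusted p = 0.00734). Their median log2 difference was 2.32 in C3H and 1.17 in C57. Of the 5 markers of epithelium in general 0 were called in heart of either strain, with medians of -0.67 and -0.53. The summed level of the ciliated markers was 61.9 to 200.2 RPM in sham and 183.6 to 724.1 RPM in irradiated C3H heart, with 28.8 to 122.5 and 77.8 to 178.2 RPM in C57 heart. In lung, whose airways are ciliated, 1 of 5 rose in C3H and 0 of 5 in C57. Of 4 cardiac muscle markers 0 were called in C3H heart, with a median of -0.61. They summed to 216176 to 291001 RPM in sham and 50690 to 246805 RPM in irradiated libraries, lowest in replicate 3. Among blood cell markers in C3H heart, most were not called. Of 4 erythrocyte markers 1 fell, miR-451a by 1.33 (limma adjusted p = 0.026), and of 5 leukocyte markers 1 fell, miR-150-5p by 1.63 (limma adjusted p = 1.42e-09), with list medians of -1.21 and -0.30. The erythrocyte markers summed to 607.8 to 2740 RPM in sham and 330.8 to 1722 RPM in irradiated C3H heart, and the leukocyte markers to 1065 to 10253 and 832.6 to 2656 RPM. The part of these cells in the miR-216a-5p values was not tested.

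In C3H lung the cardiac muscle markers fell in 2 of 4 (miR-208a-3p by 1.42 and miR-499-5p by 1.46 on the log2 scale, limma adjusted p = 0.00509 and 1.22e-05). Their summed level was 4759 to 7515 RPM in sham and 2569 to 5226 RPM in irradiated C3H lung. In C57 lung 1 of 3 neuronal markers rose, miR-9-5p by 1.33 (limma adjusted p = 0.0326). The summed level of the 3 neuronal markers was 56.6 to 191.8 RPM in sham and 121.1 to 556.8 RPM in irradiated C57 lung, and 0 of 3 were called in C3H lung or in heart of either strain. The part of these cells in the miR-216a-5p values was not tested.

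Brain lay outside the irradiated field. Brain values were not among those taken to have chosen the cluster, but they may have been in view, so the tests there are not independent evidence. The C3H sham brain libraries ranged from 35.2 through a median of 83.5 to 127.6 RPM, and the irradiated ones from 69.6 through 109.5 to 113.5 RPM. The C57 sham libraries ranged from 51.6 through 89.1 to 199.7 RPM, and the irradiated ones held 72.3, 57.6, 80.9, 78.6 and 62.8 RPM. The groups overlapped in both strains, and all 5 irradiated C57 libraries lay below the sham median. The difference of mean log2(RPM + 0.5) was 0.40 in C3H (exact permutation test, two-sided, p = 0.161, adjusted p = 1) and -0.37 in C57 (exact permutation p = 0.121, adjusted p = 0.573). Within letters A and B of C57 it was -0.57 and -0.19 (exact permutation p = 0.244 and 0.467, adjusted p = 0.867 and 0.946). With p adjusted over 792 miRNAs, 0% were called in both strains, and 21 and 81 had an unadjusted p under 0.05. limma called 0 of 433 in either strain.

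The C3H sham brains were separated by letter. The 4 letter A sham libraries held 35.2 to 62.4 RPM and the 4 letter B sham libraries 104.5 to 127.6 RPM, without overlap, as for 11.6% of the 792 brain miRNAs. The 3 irradiated letter A libraries held 69.6 to 111.3 RPM. The 4 irradiated letter B libraries held 98.1 to 113.5 RPM, within or just below their sham range. Within letter A the log2 difference was 0.82 (exact permutation p = 0.0286, the smallest that 3 against 4 libraries can give, adjusted p = 0.983 over 688 miRNAs). Other miRNAs with as complete a split were not counted, so nothing is read from it. Within letter B it was -0.06 (exact permutation p = 0.543, adjusted p = 1).

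MiR-217-5p and miR-216b-5p did not pass the test in brain either. MiR-217-5p had 12 counts in 7 irradiated and 11 in 8 sham C3H libraries, a ratio of 1.16 with an exact interval of 0.467 to 2.89. In C57 brain it had 14 counts in 5 irradiated and 44 in 15 sham libraries, a ratio of 1.04 with an interval of 0.529 to 1.94. MiR-216b-5p had 2 against 6 counts in C3H and 2 against 22 in C57, with ratios of 0.353 (0.0349 to 1.98) and 0.299 (0.034 to 1.21). The lowest adjusted p of these 4 comparisons was 0.651 (exact permutation test).

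In sham mice the level of miR-216a-5p differed between the strains in heart and lung. The sham libraries are also an arm of the contrast that chose the cluster and their levels may have been in view, so the tests of strain, sex and tissue in them are not independent evidence. In heart, the 8 C3H libraries held 2.52 to 6.56 RPM and the 7 C57 female libraries 0 to 0.849 RPM, with medians of 4.65 and 0.574. No C3H value overlapped a C57 female value, as for 4.58% of the heart miRNAs with at least 10 counts. The log2 difference, C3H minus C57 females, was 2.11 (SE 0.44, limma adjusted p = 0.000711), in a comparison in which 11.4% of 367 miRNAs were called. It was called within both letters, at 1.62 in A and 2.18 in B. With TMM factors, edgeR, DESeq2 and library size alone it was 2.52, 2.65, 2.82 and 2.90. In the same contrast 2 of 4 erythrocyte markers were higher in C3H, miR-144-3p and miR-451a (by 1.88 and 1.99, limma adjusted p = 0.0152 and 0.000259), with a list median of 1.29. Of 4 cardiac muscle and 5 epithelial markers, 1 each was higher, miR-208a-3p and miR-141-3p (by 1.73 and 1.35, limma adjusted p = 0.0183 and 0.0248). The erythrocyte markers summed to 607.8 to 2740 RPM in C3H and 339.6 to 704.2 RPM in C57 females, the cardiac muscle markers to 216176 to 291001 and 222477 to 298863 RPM, and the epithelial markers to 87.4 to 941.5 and 52.2 to 301.9 RPM. Their part in the miR-216a-5p difference was not tested.

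In lung miR-216a-5p was also higher in C3H, by values that differed between the letters. The 8 C3H libraries held 0.812 to 4.35 RPM with a median of 2.30, and the 7 C57 female libraries 0 to 2.04 RPM with a median of 0.57. The log2 difference was 1.90 (SE 0.46, limma adjusted p = 0.00351), where 5.54% of 397 miRNAs were called. The 3 C57 females of letter B held 0, 0 and 1 count, and the 4 of letter A held 6, 5, 6 and 2 counts. Within letter A the difference was 0.78 (limma adjusted p = 0.464) and within letter B 3.62 (limma adjusted p = 0.00667), the last on 1 count in 3 C57 females. The difference between the letters was not tested. An exact permutation test of log2(RPM + 0.5), chosen after seeing the data, gave 1.25 (adjusted p = 0.0976). In the same contrast 2 of 4 cardiac muscle markers were higher in C3H, miR-133a-3p and miR-499-5p (by 1.20 and 3.06, limma adjusted p = 5.56e-05 and 2.35e-09), with a list median of 1.16. They summed to 4759 to 7515 RPM in C3H and 2724 to 5974 RPM in C57 females. Of the 5 tested pancreas miRNAs 1 was lower, miR-7b-5p (by 1.52, limma adjusted p = 0.000212). Their part in the miR-216a-5p difference was not tested. In brain the sham C3H and C57 female libraries overlapped, at 35.2 to 127.6 and 51.6 to 199.7 RPM.

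In lung the sham C57 sexes overlapped, and limma called a difference on 0 to 6 counts in females and 3 to 15 in males. MiR-216a-5p passed a filter over all lung libraries, C3H and irradiated ones included. It did not pass in C57 lung alone. The 8 male lungs held 1.15 to 4.54 RPM (median 1.62) and the 7 female lungs 0 to 2.04 RPM (median 0.57). The log2 difference, female minus male, was -1.56 (SE 0.48, limma adjusted p = 0.0409), where 2.27% of miRNAs were called. The call was lost under edgeR's quasi-likelihood test (-1.14, adjusted p = 0.0887) and the exact permutation test (-1.04, adjusted p = 0.257). Of 4 erythrocyte markers 2 were higher in female lungs, miR-144-5p and miR-486a-5p (by 1.76 and 2.06, limma adjusted p = 0.0338 and 0.0155), with a list median of 1.64. They summed to 344.2 to 2121 RPM in females and 105.9 to 755.8 RPM in males. Of 5 leukocyte markers 0 were called, with a list median of -0.63. These summed to 2393 to 3833 RPM in females and 3572 to 9748 RPM in males. The part of either list in the miR-216a-5p difference was not tested. In heart females had 0 to 3 and males 0 to 4 counts, and the log2 difference was 0.64 (SE 0.56, limma adjusted p = 0.378), where 10.1% were called. MiR-217-5p and miR-216b-5p had at most 1 count in any sham lung or heart library. They entered the permutation tests of strain, sex and sham tissue through counts summed over all libraries, irradiated ones included. None was passed (lowest adjusted p = 0.316 in an exact permutation test). With so few sham counts these tests could hardly have been passed, so nothing is read from them. With a looser filter limma did call miR-216b-5p higher in C3H sham heart than lung (adjusted p = 2.31e-05), on 2 counts against 0. It also called the difference between strains in that contrast for miR-216b-5p and miR-217-5p (limma adjusted p = 0.000124 and 0.00478). All these sham groups held at most 3 counts of either miRNA, so no fold is given.

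Heart and lung came from the same animals. Within sham C3H mice miR-216a-5p was higher in heart in 7 of 8 animals, with a log2 difference of 1.37 (SE 0.38, limma adjusted p = 0.001), where 46.5% of 374 miRNAs were called. It fell under the minimum size of a call with library size alone (1.00, adjusted p = 0.0249) and in the exact permutation test (0.86, adjusted p = 0.019). Markers that tell the tissues apart differed too, with 4 of 4 erythrocyte and 2 of 3 neuronal markers higher in C3H heart (medians 1.79 and 2.68) and 5 of 5 epithelial markers lower (median -6.06). Among irradiated C3H mice it was higher in heart in 6 of 7, the exception being the animal of heart replicate 3. In C57 mice the heart was higher in 4 of 15 sham and 0 of 5 irradiated animals. MiR-216a-5p was fitted there through a filter over both strains, which it did not pass in C57 lung or C57 heart alone. The normalised log2 difference in sham C57 mice was 0.18 (SE 0.35, limma adjusted p = 0.648), where 43.3% were called, while with TMM factors it was -0.38 and for log2(RPM + 0.5) it was -0.71 (permutation test, adjusted p = 0.0324). With a looser filter it was -0.51, so the direction in C57 turned with the scaling and with the filter. The median over all 374 miRNAs also turned, from 0.07 to -0.16 with TMM factors. The difference between the strains in this contrast was 1.19 (SE 0.52, limma adjusted p = 0.0883), where 12.3% were called, and it was past the threshold with 4 other scalings or tools, from 1.67 to 2.09. In this difference 3 of 5 ciliated markers were higher (median 1.65), and the part of these markers in the miR-216a-5p values was not tested.

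**Figure D4:**
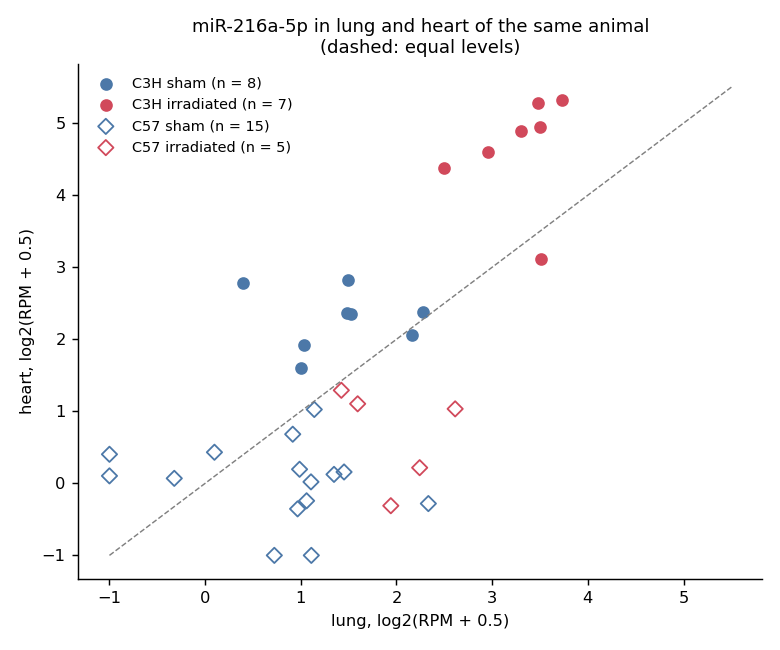
MiR-216a-5p in lung (horizontal) and heart (vertical) of each of 35 animals as log2(RPM + 0.5), with strain and treatment as symbols and a dashed line at equal levels. C3H animals lie mostly above the line (7 of 8 sham, 6 of 7 irradiated) and C57 animals mostly below it (11 of 15 sham, 5 of 5 irradiated).

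In the 3 groups with at least 6 animals, those with more miR-216a-5p in lung did not detectably have more in heart, and the 5 irradiated C57 animals were too few for a correlation. Of 7 relations tested together, Pearson's r of log2(RPM + 0.5) between lung and heart was 0.19 in 7 irradiated C3H mice (exact permutation p = 0.652, adjusted p = 0.761), with Spearman's rho at 0.43 (exact permutation p = 0.354, adjusted p = 0.752). In 8 sham C3H mice r was -0.06 and rho 0.14 (exact permutation p = 0.875 and 0.752, adjusted p = 0.875 and 0.752). In 15 sham C57 mice r was -0.20 and rho -0.14 (permutation p = 0.475 and 0.626, adjusted p = 0.665 and 0.752). Without the 2 animals farthest from the lung median r was 0.14, 0.37 and -0.11.

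The members did not detectably vary together within irradiated C3H mice. In lung, r of miR-216a-5p was 0.54 with miR-216b-5p and 0.48 with miR-217-5p (n = 7, exact permutation p = 0.167 and 0.273, adjusted p = 0.665 for both). Their rho was 0.67 and 0.21 (exact permutation p = 0.143 and 0.662, adjusted p = 0.752 for both). In heart r was 0.41 and -0.33 (n = 7, exact permutation p = 0.389 and 0.405, adjusted p = 0.665 for both), and rho was 0.30 and -0.32 (exact permutation p = 0.524 and 0.498, adjusted p = 0.752 for both). Without the 2 libraries farthest from the median of miR-216a-5p, r was 0.67 and 0.54 in lung, and -0.48 and 0.40 in heart. With at most 6 counts of the rarer members in a library, a relation was hardly detectable.

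The patterns most like that of miR-216a-5p over all 35 lung libraries, by Pearson's r of normalised log2 RPM over 349 miRNAs, were those of miR-335-3p (0.82), miR-335-5p (0.81), miR-376b-3p (0.72), miR-541-5p (0.66) and miR-204-5p (0.65). Over 35 heart libraries and 310 miRNAs they were miR-547-3p (0.83), miR-146b-5p (0.79), miR-34c-5p (0.78), miR-184-3p (0.75) and miR-201-3p (0.71). These libraries share strain and treatment groups. On deviations from the group means other miRNAs ranked highest, in lung miR-7a-1-3p (0.63), miR-96-5p (0.62), miR-362-3p (0.61), miR-19b-3p (0.60) and miR-15a-5p (0.59). In heart these were miR-337-5p (0.53), miR-322-3p (0.52), miR-185-5p (0.49), miR-103-3p (0.49) and miR-362-5p (0.47). None of the 5 highest over all libraries in either tissue was among the 5 highest on deviations.

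**Figure D5:**
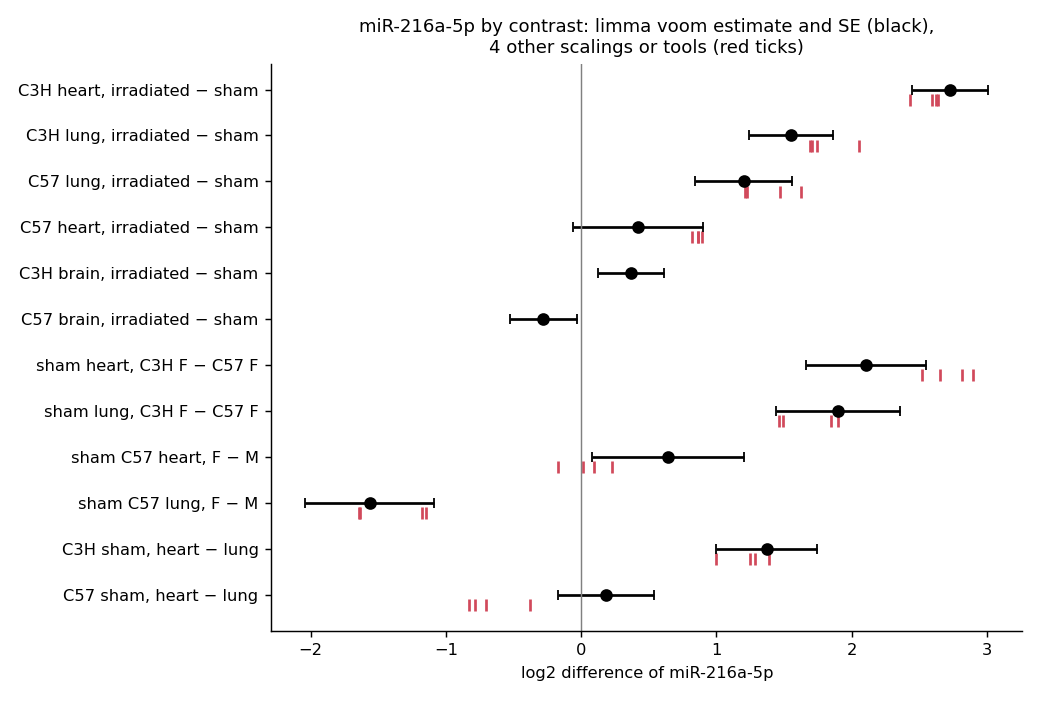
Log2 difference of miR-216a-5p in each contrast, with the limma voom estimate and its SE in black and, for lung and heart, the estimates with TMM factors, library size alone, edgeR and DESeq2 as red ticks. Among the black estimates the C3H heart value after irradiation is highest at 2.73. With library size alone, edgeR and DESeq2 the sham heart strain value is higher (2.90, 2.65 and 2.82 against 2.43, 2.62 and 2.64). The sham C57 heart minus lung value of 0.18 lies on the other side of 0 from all 4 ticks.

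In blood fractions the members were nearly absent but for 1 library. WBC held 6 counts of miR-216a-5p, 1 in each of 6 of 27 libraries. RBC held 120 counts of miR-216a-5p in 2 of 35 libraries, and 119 of these (32.7 RPM) were in C57 sham replicate 13. That library also held 2 counts of miR-216b-5p, 1 of miR-217-5p, 2 of miR-216a-3p and 3 of miR-216b-3p, while the other 34 RBC libraries held at most 1 count of any of these. The same animal had 56.3 RPM of miR-216a-5p in brain, 0.823 RPM in heart and 0 in lung. So the RBC level exceeded those of its heart and lung.

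The RBC library with miR-216a-5p stood apart in other miRNAs as well. It was the highest of the 35 RBC libraries for 123 of 463 miRNAs (26.6%) and for 4 of 8 miRNAs of the pancreas list. MiR-375-3p was at 16.7 RPM against 0 to 3.78 RPM in the other 34, and miR-141-3p, an epithelial miRNA, at 858.8 against 31.3 to 577.4 RPM. It was also the highest for miR-192-5p and miR-194-5p, 2 of 3 liver miRNAs, for 3 of 5 epithelial and for 1 of 5 mesenchymal miRNAs. For the cardiac and neuronal lists it was the highest in 0 of 4 and 0 of 3. The 5 of these 7 that were above 0 in it all lay above the median of the other 34, among them miR-1a-3p at 20.6 against 1.05 RPM and miR-128-3p at 407.8 against 371.2 RPM. MiR-124-3p and miR-208a-3p were at 0 in it and at most at 0.398 RPM in the others. The source of these reads was not tested. Irradiated and sham RBC libraries cannot be compared for miR-216a-5p, since all C3H libraries held 0 counts and all but 1 of the C57 counts were in replicate 13. Of 463 RBC miRNAs 0% were called in both strains, and 26 in C3H and 32 in C57 had an unadjusted p under 0.05. Without replicate 13 only 1 count remained in RBC, too few to test.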

How the data were processed

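Small RNA reads were trimmed and matched to mouse miRNAs by a commercial pipeline (build mm10 in the submitters' processing notes), and the authors deposited raw read counts per mature miRNA, 1 table for each of 5 tissues (167 libraries, 0 columns of no sample). Counts were not normalised. Whether molecular identifiers were used was not given in the sources used here. The exact intervals treat pooled counts as independent and leave out differences between animals, so they can be too narrow. RPM divides counts by the library total. Groups came from the sample labels, where each library of a tissue is 1 animal. In R 4.3.3, counts were filtered (filterByExpr of edgeR 4.0.16, count minimum 10, total minimum 15) and fitted by limma 3.58.1 with voom and quantile normalisation, with Benjamini-Hochberg adjusted p over all miRNAs tested. Calls needed an adjusted p under 0.05 and a log2 difference of at least 1.17 in size. Where the members failed the filter, and in brain and RBC, exact permutation tests of log2(RPM + 0.5) were used over miRNAs with at least 10 counts in the tissue. With 15 animals in a group, correlations and the C57 tissue contrast used 100000 resamples. All libraries of a group differed from each other by more than counting noise (smallest chi-square per degree of freedom 15.5). Both tests were checked on simulated counts. The miRNAs named are the members, the other arms of the locus, the marker lists and the 5 most similar patterns per tissue. The members and lists were chosen with earlier results of these data known. DESeq2 1.42.0, edgeR, other scalings, filters, pseudocounts, letters and left-out libraries were alternatives.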

Additional observations from a re-analysis of the deposited data

How the results depend on the processing

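Of 227 alternative values for 34 results, 200 kept their direction and their side of the threshold, or moved by less than 1 SD between libraries where no test was made. For miR-216a-5p after irradiation the log2 difference stayed between 2.43 and 2.89 in C3H heart, 1.35 and 2.06 in C3H lung, 0.82 and 1.62 in C57 lung and 0.09 and 0.90 in C57 heart. In sham C57 mice, heart minus lung turned from 0.18 to -0.38 with TMM factors, -0.83 with library size alone, -0.78 with edgeR, -0.71 with DESeq2, -0.51 with a looser filter and -0.71 in the permutation test. The median of all miRNAs in that contrast moved from 0.07 to -0.16 with TMM factors, -0.60 with library size alone and -0.15 with edgeR. Library size alone also moved it to -0.42 in C3H, to 0.27 for irradiation in C3H lung, and to -0.31 for sex and 0.36 for strain in heart. With the animal as a replicate block, heart minus lung of miR-216a-5p was 0.18 in C57, 1.37 in C3H and 1.19 for the difference between strains, and no call of miR-216a-5p changed. In C3H, heart minus lung lost its call with library size alone (1.00, under the fold minimum) and in the permutation test (0.86). The difference between strains became a call with TMM factors (1.67), library size alone (1.83), edgeR (2.03), DESeq2 (2.09) and a looser filter (1.81).

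For strain in sham lung the call was lost within letter A (0.78) and in the permutation test (1.25). For sex in sham C57 lung it was lost with library size alone (-1.64), edgeR (-1.14), a looser filter (-1.55) and the permutation test (-1.04). For sex in heart the uncalled value turned to -0.17 with library size alone and -0.10 in the permutation test. In C3H brain, uncalled values turned within letter B for miR-216a-5p (-0.057) and miR-216b-5p (0.19) and within letter A for miR-217-5p (-0.19). In C57 brain the uncalled miR-217-5p value turned within letter A (-0.19) and ranged from -0.10 to 0.23 when 1 irradiated library was left out. The causes of these changes were not tested. No member passed the stricter filter of 10 counts in every library in lung or heart, where it was run, and miR-216a-5p failed the filter in C57 lung and heart alone. In WBC no member reached 10 counts, and with at least 1 count the miR-216a-5p differences of -0.11 in C3H and -0.011 in C57 (exact permutation p = 0.545 and 1) rest on 6 counts in all.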
